A study of Mus musculus with 72 samples.

Results

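The Ces1 carboxylesterase cluster of the mouse is a row of closely related genes on chromosome 8 that encode serine hydrolases of the liver. Its 6 members with sizeable liver counts, Ces1b, Ces1c, Ces1d, Ces1e, Ces1f and Ces1g, were taken from the 55573 genes of the count table by their Ensembl identifiers. They were chosen by their differences between genotypes and between microbial states, pooled and by time of day, in these same libraries. Those differences are therefore a description, given with standard errors (SE) and no p-value, and the counts of members called in them stand only beside the share of all genes called and support nothing. All 6 members passed the filter on low counts, and each had counts in all 72 libraries.

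Livers came from male C57BL/6 mice, of a C57BL/6J background by the study's methods, with 1 mouse per library. WT mice were Bmal1 fl/fl, so that both copies of Bmal1, a core activator of the circadian clock, were flanked by loxP sites but intact. LKO mice were Bmal1 fl/fl with Albumin-Cre, which removes Bmal1 in hepatocytes, while the other cells of the liver keep it. WT mice are described without the Cre, so loss of Bmal1 and carrying the Cre cannot be told apart. Both genotypes were either specific pathogen free (SPF), with gut microbes and bred in a vivarium, or germ free (GF), rederived without microbes and kept in isolators, so microbes and housing cannot be told apart. Mice were collected at ZT2, ZT6, ZT10, ZT14, ZT18 and ZT22 (ZT, hours from lights on, with 12 hours of light), 3 mice per group and ZT, which gave 18 libraries per group. Individual housing began at 10 to 14 weeks of age, and livers were taken weeks later. Libraries held 17369927 to 22076113 counts, of which the 6 members took 0.233% to 0.599% (median 0.385%). In bulk tissue, fewer cells of a type and less RNA per cell cannot be told apart.

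Npas2, a partner of Bmal1 whose transcript is high when Bmal1 is absent, checked the genotype labels. Leaving 4 libraries aside, Npas2 was at 14.3 to 44.7 CPM (counts scaled by library size) in LKO libraries and at 0 to 12.9 CPM in WT libraries. The library labelled SPF LKO ZT14 replicate 2 had 0.220 CPM and that labelled SPF LKO ZT18 replicate 1 had 1.81 CPM, both in the WT range. Nr1d1, a clock gene that peaks by day, was at 84.9 CPM in SPF WT ZT14 replicate 3, while the other 2 mice of that group and time averaged 5.86 CPM. It was at 9.34 CPM in GF WT ZT6 replicate 3, while the other 2 averaged 49.98 CPM. These 4 libraries went against their labels, and the main values that shift without them are given both ways. Fitted peak times are given over all libraries only.

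Carboxylesterases cleave ester bonds in drugs, in other foreign compounds and in neutral lipids, and most of them reside in the endoplasmic reticulum of hepatocytes. Ces1d, also known as triacylglycerol hydrolase, mobilizes stored triacylglycerol for the assembly of very low density lipoprotein (VLDL). Ces1g, also known as Es-x, is another hydrolase that bears on hepatic triacylglycerol and VLDL, and Ces1f is related to triacylglycerol hydrolase. Ces1c is the carboxylesterase that the mouse liver secretes into plasma, and Ces1e, also known as egasyn, holds beta-glucuronidase in the endoplasmic reticulum.

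In GRCm38 the members lie on the minus strand of chromosome 8 between bases 93056728 and 93337308, a stretch of 280581 bases, with gaps of 3379 to 34784 bases between neighbors. Ces1b is at 93056728 to 93080017, Ces1c at 93099015 to 93131283, Ces1d at 93166068 to 93197838, Ces1e at 93201218 to 93229619, Ces1f at 93256236 to 93279747 and Ces1g at 93302369 to 93337308. Ces1a and Ces1h flank the 6 members and had at most 11 and 2 counts in any library. Copies this alike can lose reads, since reads that aligned to several places were not counted. Of the 50-base windows of each gene's transcripts, the share found in no other gene was 88.4% for Ces1b, 87.0% for Ces1c, 98.9% for Ces1d, 97.03% for Ces1e, 99.1% for Ces1f and 98.3% for Ces1g. Ces1b and Ces1c shared 190 windows, 9.92% of those of Ces1b and 8.18% of those of Ces1c, so their levels are the least certain of the 6.

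RefSeq (GRCm38.p6) windows at the transcription start matched 4 of the 6 members, Ces1b, Ces1c, Ces1e and Ces1g. The 250 bases upstream of the start are shown because these genes moved together between groups and because all 4 hold the same 8 letters. The letters, TTATGTAA in capitals, are a form of the D-box, which DBP, TEF, HLF and NFIL3 bind and which carries output of the clock.
Ces1b, minus strand, chr8:93079941-93080190: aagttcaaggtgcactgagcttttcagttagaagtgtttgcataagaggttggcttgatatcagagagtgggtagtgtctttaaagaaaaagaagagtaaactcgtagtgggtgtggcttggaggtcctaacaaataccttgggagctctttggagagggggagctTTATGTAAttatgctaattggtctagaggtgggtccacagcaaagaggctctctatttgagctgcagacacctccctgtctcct
Ces1c, minus strand, chr8:93131284-93131533: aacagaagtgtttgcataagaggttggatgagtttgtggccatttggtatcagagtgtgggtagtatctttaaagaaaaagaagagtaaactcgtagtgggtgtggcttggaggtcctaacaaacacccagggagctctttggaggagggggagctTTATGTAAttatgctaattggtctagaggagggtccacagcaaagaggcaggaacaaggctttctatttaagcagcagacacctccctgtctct
Ces1e, minus strand, chr8:93229620-93229869: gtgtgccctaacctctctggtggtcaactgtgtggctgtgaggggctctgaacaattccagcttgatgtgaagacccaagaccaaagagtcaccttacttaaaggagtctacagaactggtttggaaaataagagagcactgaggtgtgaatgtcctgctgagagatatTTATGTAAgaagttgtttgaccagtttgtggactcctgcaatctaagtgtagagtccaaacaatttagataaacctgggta
Ces1g, minus strand, chr8:93337210-93337459: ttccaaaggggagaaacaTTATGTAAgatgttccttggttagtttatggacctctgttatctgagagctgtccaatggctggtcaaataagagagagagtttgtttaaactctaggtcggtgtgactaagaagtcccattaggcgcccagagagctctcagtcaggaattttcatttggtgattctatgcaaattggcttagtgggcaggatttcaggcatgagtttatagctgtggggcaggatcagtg
The D-box began 84 bases upstream of the RefSeq start in Ces1b, 94 in Ces1c, 81 in Ces1e and 232 in Ces1g. RefSeq also lists a Ces1b start 77 bases further upstream, and the gene as counted begins there. The same D-box begins 7 bases before that start and runs across it. Part of the stretch shown for Ces1b is therefore within the gene as counted. The RefSeq start of Ces1g, base 93337209, lies inside the gene as counted, which begins at base 93337308. Part of the stretch shown for Ces1g is therefore within that gene, while its D-box lies upstream of both starts. Searched on both strands, TTATGTAA occurred in 308 of 32851 RefSeq windows of 300 bases (0.938%). The motif was chosen after these windows had been read, and a match describes letters, not a binding site. The variant TTACGTAA (39 windows, 0.119%), the E-box CACGTG (7.15%) and the nuclear receptor motif AGGTCA (16.3%) had no match in the windows of the members. Ces1b and Ces1c shared a run of 58 bases upstream of their starts, whereas no other pair of these 4 genes shared more than 11.

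Levels were compared between members only per kb of gene length, since longer transcripts give more reads. Over all 72 libraries Ces1c had the highest level, a median of 858 CPM per kb (lowest 710.1, highest 1127). Ces1d followed at a median of 263 CPM per kb, with the widest range, 46.7 to 1075. Median levels per kb were 154 CPM for Ces1f, 119.9 for Ces1g, 93.6 for Ces1e and 28.7 for Ces1b. Ces1c led in 71 of the 72 libraries, and in the remaining one, an SPF WT library, Ces1d led.

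**Figure D1:**
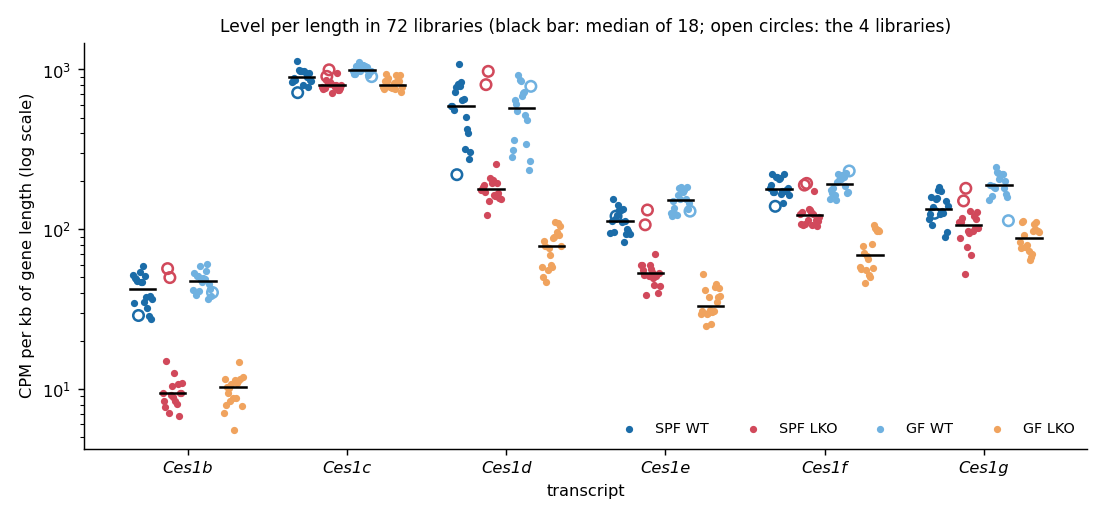
CPM per kb of gene length (log axis) of the 6 transcripts in each library, by group; points are mice, black bars medians of 18 libraries, and open circles the 4 libraries that went against their labels. Ces1c lay between 710.1 and 1127 in every group, while Ces1d ranged from 46.7 to 1075.

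The rank of the members changed with group. In the most frequent order of both GF groups, but of neither SPF group, Ces1g stood above Ces1f. In GF WT livers, however, the 2 were nearly level, with mean levels per kb of 191.3 CPM for Ces1f and 191.0 for Ces1g. Their order also depends on the gene lengths used, 3285 bases for Ces1f and 2388 for Ces1g. In GF LKO livers the order Ces1c, Ces1g, Ces1d, Ces1f, Ces1e and Ces1b was the most frequent, in 9 of 18 libraries, whereas in GF WT livers it was Ces1c, Ces1d, Ces1g, Ces1f, Ces1e and Ces1b, in 10 of 18. In SPF WT and SPF LKO livers it was Ces1c, Ces1d, Ces1f, Ces1g, Ces1e and Ces1b, in 14 of 18 each. The share of Ces1c in the summed level per kb was 46.7% ± 5.59 (SD, n = 18) in SPF WT, 47.4% ± 5.67 in GF WT, 60.7% ± 8.04 in SPF LKO and 74.3% ± 3.56 in GF LKO. The share of Ces1d was 28.7% ± 7.20 in SPF WT, 25.4% ± 7.15 in GF WT, 16.7% ± 7.70 in SPF LKO and 7.01% ± 1.51 in GF LKO. The WT groups differed by less than their SD, and GF LKO livers were the farthest from them for both members. Without the 2 SPF LKO libraries in the WT range, the SPF LKO shares were 63.3% ± 3.18 for Ces1c and 14.2% ± 1.66 for Ces1d (n = 16). The summed level was 1964 ± 350.1 CPM per kb in SPF WT, 2146 ± 312 in GF WT, 1379.9 ± 376 in SPF LKO and 1107 ± 105 in GF LKO (SD, n = 18 each), and 1256 ± 102 in SPF LKO without those 2 libraries.

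Ces1d, the triacylglycerol hydrolase, was high in both WT groups, lower in SPF LKO and lowest in GF LKO livers. It was at 520.1 to 2546 CPM (median 1395) in SPF WT and at 554 to 2189 CPM (median 1369) in GF WT. In SPF LKO it was at 291 to 2305 CPM (median 425), and at 291 to 610.2 CPM (median 412) without the 2 libraries in the WT range. In GF LKO it was at 111 to 265 CPM (median 185). The WT groups overlapped, and every GF LKO library was below every SPF LKO library and every WT library. The log2 difference of LKO from WT was -1.18 ± 0.25 (SE) in SPF mice and -2.84 ± 0.18 in GF mice, and without the 4 libraries it was -1.76 ± 0.15 and -2.81 ± 0.18.

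Ces1f, its relative, had GF LKO livers lowest as well, with smaller steps. It was at 457 to 731 CPM (median 586) in SPF WT and 504 to 761 CPM (median 629) in GF WT. In SPF LKO it was at 342 to 636 CPM (median 401) and in GF LKO at 151 to 350.3 CPM (median 228). GF LKO and GF WT libraries did not overlap, whereas SPF LKO libraries reached the SPF WT range, also without the 4 libraries. The log2 difference of LKO from WT was -0.51 ± 0.08 in SPF mice (-0.63 ± 0.06 without the 4 libraries) and -1.35 ± 0.11 in GF mice.

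Ces1g, the other hydrolase tied to hepatic triacylglycerol, was at 214 to 436 CPM (median 319) in SPF WT and 270.1 to 586 CPM (median 451) in GF WT. In SPF LKO it was at 125 to 431 CPM (median 255) and in GF LKO at 154 to 269.8 CPM (median 210.2). SPF LKO libraries overlapped SPF WT with and without the 4 libraries, and every GF LKO library was below every GF WT library. The log2 difference of LKO from WT was -0.34 ± 0.11 in SPF mice (-0.45 ± 0.11 without the 4 libraries) and -1.10 ± 0.09 in GF mice.

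Ces1e, the retention partner of beta-glucuronidase, was at 181 to 341 CPM (median 247) in SPF WT and 265 to 405 CPM (median 334) in GF WT. In SPF LKO it was at 84.9 to 289 CPM (median 117), and at 84.9 to 153 CPM (median 115) without the 2 libraries in the WT range. In GF LKO it was at 54.4 to 115 CPM (median 72.6). Without the 4 libraries the genotypes did not overlap in either microbial state. The log2 difference of LKO from WT was -0.93 ± 0.12 in SPF mice (-1.11 ± 0.08 without the 4 libraries) and -2.10 ± 0.09 in GF mice.

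Ces1b had the lowest level per kb of the 6 in every library. It was at 54.1 to 115 CPM (median 83.4) in SPF WT and 72.3 to 119 CPM (median 93.8) in GF WT. In SPF LKO it was at 13.4 to 111 CPM (median 18.4), with 111 and 97.9 CPM in the 2 libraries in the WT range and at most 29.6 CPM in the other 16. In GF LKO it was at 10.8 to 28.8 CPM (median 20.1). Apart from those 2 libraries the LKO groups overlapped each other and neither overlapped its WT group. The log2 difference of LKO from WT was -1.54 ± 0.25 in SPF mice and -2.24 ± 0.09 in GF mice, and -2.16 ± 0.11 and -2.25 ± 0.09 without the 4 libraries.

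Ces1c, the plasma esterase, varied least. It was at 1663 to 2619 CPM (median 2071) in SPF WT and 2096 to 2595 CPM (median 2313) in GF WT, and at 1649.7 to 2311 CPM (median 1857) in SPF LKO and 1676 to 2174 CPM (median 1862) in GF LKO. Each pair of groups compared overlapped. The log2 difference of LKO from WT was -0.16 ± 0.05 in SPF mice and -0.28 ± 0.04 in GF mice, and -0.21 ± 0.05 and -0.29 ± 0.04 without the 4 libraries.

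**Figure D2:**
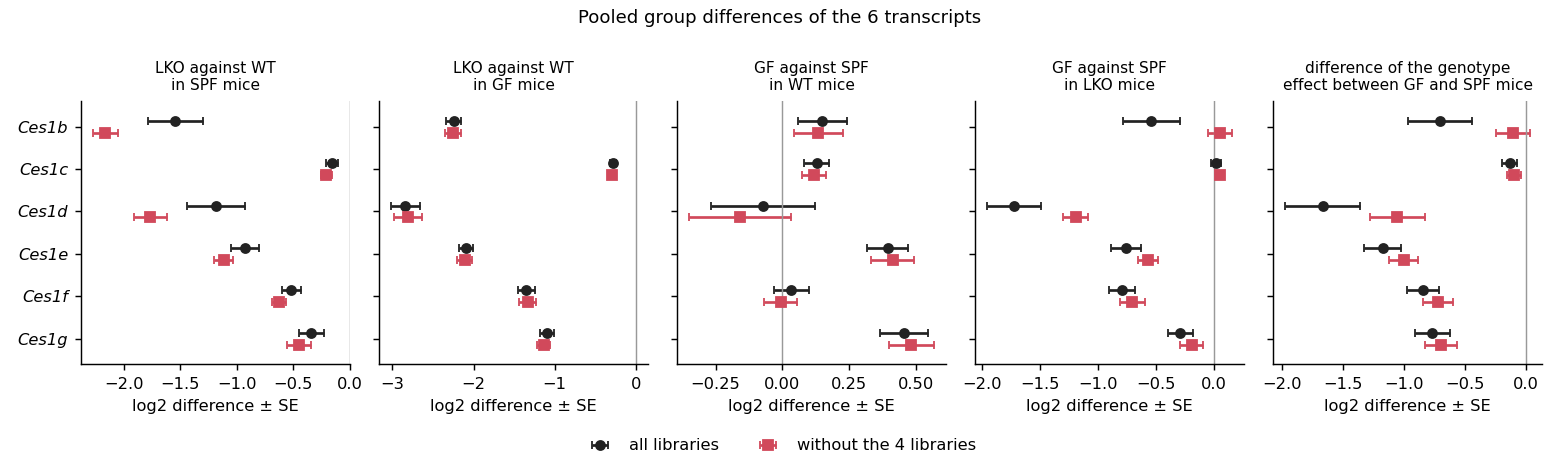
Log2 difference ± SE of the 6 transcripts in each comparison, from edgeR fits with ZT pooled, over all libraries (black circles) and without the 4 libraries that went against their labels (red squares). Scales differ between panels. Ces1b moved from -0.54 to 0.05 for GF against SPF in LKO mice and from -0.71 to -0.10 for the difference of the genotype effect.

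By edgeR's quasi-likelihood test at an adjusted p under 0.05, all 6 members were called lower in LKO than in WT livers in SPF mice, where 11.5% of the 13159 genes tested were called lower and 11.6% higher. All 6 were called lower in GF mice, where 15.2% of 12662 genes were called lower and 15.6% higher. These contrasts chose the members, so nothing is read from the counts. The median log2 difference of the members was -0.72 in SPF mice and -1.72 in GF mice, beside -0.01 and 0.01 over all genes tested.

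Between microbial states, Ces1e was higher in GF than in SPF livers in WT mice and lower in LKO mice. In WT livers GF mice had more Ces1g (0.46 ± 0.09), Ces1e (0.40 ± 0.08) and Ces1c (0.13 ± 0.05) than SPF mice. The differences of Ces1b (0.15 ± 0.09), Ces1f (0.03 ± 0.06) and Ces1d (-0.07 ± 0.19) were smaller than 2 SE over the pooled ZT. At ZT10, however, Ces1d was at 667, 739.7 and 862 CPM in GF WT and at 1330.1, 1392 and 1399 CPM in SPF WT, without overlap (log2 difference -0.87 ± 0.16). Ces1f did not overlap there either (-0.25 ± 0.14), and at the other 5 ZT both overlapped with all libraries. Without the 4 libraries Ces1d in GF WT also lay below SPF WT at ZT6 (-0.37 ± 0.17) and at ZT14 (-0.34 ± 0.20), while Ces1f still overlapped at those times. Of the pooled differences, the first 3 were called, all higher, where 14.2% of 12776 genes were called higher and 17.7% lower.

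In LKO livers GF mice had less Ces1d (-1.72 ± 0.23), Ces1f (-0.79 ± 0.11), Ces1e (-0.76 ± 0.13) and Ces1g (-0.29 ± 0.11) than SPF mice. These 4 were called lower, where 18.4% of 13010 genes were called lower and 18.1% higher. Without the 4 libraries the values were -1.19 ± 0.11 for Ces1d, -0.70 ± 0.11 for Ces1f, -0.57 ± 0.09 for Ces1e and -0.19 ± 0.10 for Ces1g, and Ces1g, now below 2 SE, was no longer called. The same call was lost on leaving out only SPF LKO ZT14 replicate 2 or only SPF LKO ZT18 replicate 1, and at each of the 6 ZT the Ces1g libraries of the groups overlapped. Ces1b differed by -0.54 ± 0.24 with all libraries and by 0.05 ± 0.10 without the 4, and Ces1c by 0.01 ± 0.04.

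The genotype effect in GF mice minus that in SPF mice was below 0 for every member. It was -1.67 ± 0.31 for Ces1d, -1.18 ± 0.15 for Ces1e, -0.85 ± 0.13 for Ces1f, -0.77 ± 0.14 for Ces1g, -0.71 ± 0.26 for Ces1b and -0.13 ± 0.06 for Ces1c. The first 4 were called lower, among 43 of 13484 genes called lower (0.319%), with 16 called higher (0.119%). Without the 4 libraries it was -1.05 ± 0.22 for Ces1d, -1.002 ± 0.12 for Ces1e, -0.72 ± 0.13 for Ces1f, -0.70 ± 0.13 for Ces1g, -0.10 ± 0.14 for Ces1b and -0.09 ± 0.06 for Ces1c. Of the members, 4 were then called, among 48 genes. This comparison uses the same libraries as the others and also belongs to the rule that chose the members.

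Of 7 hepatocyte markers, Alb moved most with genotype. Alb, which encodes albumin and whose promoter drives the Cre, was lower in LKO than in WT livers in SPF mice (log2 difference -0.98 ± 0.15, edgeR adjusted p = 3.1e-06, and -1.24 ± 0.10 without the 4 libraries) and in GF mice (-1.70 ± 0.07, adjusted p = 2.9e-22). Of the other 6 (Apoa1, Ttr, Cps1, Hnf4a, Tat and Serpina1c), none was called in SPF mice (edgeR adjusted p 0.098 to 0.98), but without the 4 libraries Hnf4a (-0.21 ± 0.08, adjusted p = 0.041) and Tat (-0.52 ± 0.18, adjusted p = 0.027) were called lower. In GF mice Ttr was called lower (-0.21 ± 0.06) and Serpina1c higher (0.30 ± 0.06). For GF against SPF, 5 of the 7 were called higher in WT mice, and 4 higher and 1 lower in LKO mice, the lower being Alb, whose call was lost without the 4 libraries (-0.11 ± 0.09, adjusted p = 0.32). The summed level of the 7 was 80052 to 131707 CPM in SPF WT, 42540.4 to 124823 CPM in SPF LKO (42540.4 to 75583 CPM without the 2 libraries in the WT range), 112009 to 170012 CPM in GF WT and 50609 to 73290.3 CPM in GF LKO. Alb was the largest part of this sum, with a median of 83211 CPM beside a median sum of 105656 CPM in SPF WT. The lower sum in LKO livers therefore mostly restates the lower Alb. Of 6 Kupffer cell markers, 3 were called lower in LKO livers in SPF mice and 2 in GF mice, of which Marco was lost without the 4 libraries (adjusted p = 0.11). Of 4 cholangiocyte markers, Sox9 was called higher in LKO livers in SPF (1.17 ± 0.20) and in GF mice (0.78 ± 0.17), with all 4 summing to 3.14 to 12.4 CPM in SPF WT, 4.56 to 19.4 CPM in SPF LKO, 3.88 to 14.5 CPM in GF WT and 7.11 to 18.4 CPM in GF LKO. Of 5 stellate cell markers, Reln was called higher in LKO livers in SPF mice (0.32 ± 0.07) and Lrat in GF mice (0.38 ± 0.13). Of 5 endothelial markers, Clec4g was called lower in SPF mice (-0.28 ± 0.08) and Stab2 higher in GF mice (0.39 ± 0.07). Small intestine markers summed to at most 239.8 CPM, and the 1 of 4 that passed the filter, Fabp2, was called lower in LKO livers in GF mice (-0.40 ± 0.08). Adipocyte markers summed to at most 9.22 CPM in any library, with Lep at 0 throughout, and exocrine pancreas markers to at most 1.75 CPM, with Cela2a called higher in GF LKO than in GF WT livers (0.88 ± 0.25). Over all genes tested, 11.5% were called lower and 11.6% higher in LKO livers in SPF mice, and 15.2% and 15.6% in GF mice. For GF against SPF, 14.2% of all genes were called higher and 17.7% lower in WT mice, and 18.1% and 18.4% in LKO mice. The part of cell makeup in the differences of the members was not tested.

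**Figure D3:**
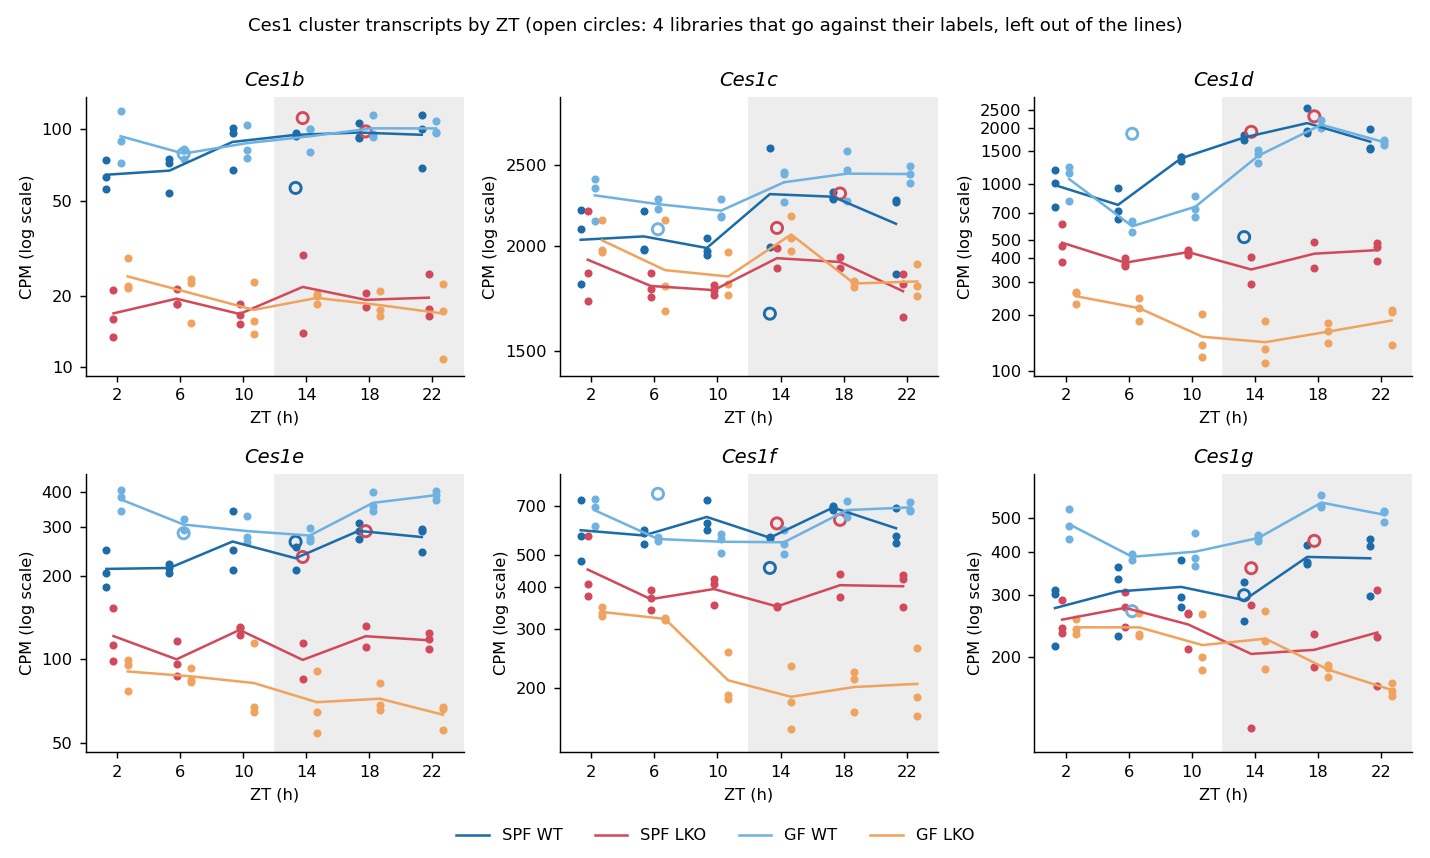
CPM (log axis) of each transcript against ZT, with 3 mice per group and ZT as points and means as lines; the dark phase is shaded, and open circles are the 4 libraries that went against their labels, left out of the lines. The Ces1d lines of both WT groups are highest at ZT18, at 2119 and 2078 CPM, while the GF LKO line is highest at ZT2, at 251 CPM.

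Within single ZT, LKO was below WT in 36 of 36 values (6 members at 6 ZT) in SPF mice. The same held for 36 of 36 in GF mice, and for both without the 4 libraries. Some values in SPF mice lay within 1 SE of 0, among them Ces1c (-0.08 ± 0.12) and Ces1g (-0.12 ± 0.14) at ZT2. All LKO libraries were below all WT libraries in 19 of the 36 in SPF mice and in 34 of 36 in GF mice, and in 29 and 35 without the 4. For GF against SPF, values were above 0 in 30 of 36 in WT and in 8 of 36 in LKO mice, and in 25 and 9 without the 4. These effects by ZT chose the members, and the same counts were not made over all genes, so nothing is read from them.

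The genotype difference in Ces1d was larger by night than by day in GF mice. At ZT18 it was at 1877, 1934 and 2546 CPM in SPF WT and at 2006, 2039.6 and 2189 CPM in GF WT. The SPF LKO mice had 355, 493 and 2305 CPM, the last in the library labelled ZT18 replicate 1, and the GF LKO mice had 142, 164 and 181 CPM. At ZT6 the SPF WT mice had 648, 720.4 and 952 CPM and the GF WT mice 554, 635 and 1858 CPM, the last in replicate 3, beside 366 to 399.7 CPM in SPF LKO and 185 to 247 CPM in GF LKO. At both times LKO mice were below WT mice, but for that SPF LKO library at ZT18. In GF mice the log2 difference of LKO from WT was -2.23 ± 0.37 at ZT6 and -3.65 ± 0.55 at ZT18, and without the 4 libraries -1.45 ± 0.17 and -3.65 ± 0.17. In SPF mice it was -1.03 ± 0.35 at ZT6 and -1.01 ± 0.50 at ZT18, and without the 4 libraries -1.03 ± 0.15 and -2.31 ± 0.19. Whether the effect differed between ZT was not tested.

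Differences between ZT within a group were not themselves named by the rule. The rule's effects by ZT came from the same libraries, however, so the p-values of members below are not independent of their choice. These differences were tested across all genes, by edgeR's quasi-likelihood F test over 6 ZT means and by limma with a 24 h cosine. In GF WT livers 3 of 6 members passed the F test, beside 13.6% of all genes. These were Ces1e (adjusted p = 0.0060), Ces1g (adjusted p = 0.013) and Ces1d (adjusted p = 0.023). Between the lowest and the highest ZT their means over all libraries went from 279 to 389 CPM for Ces1e, from 348 to 555 CPM for Ces1g and from 756 to 2078 CPM for Ces1d. In GF WT ZT6 replicate 3, which went against its label, Ces1d was at 1858 CPM and Ces1g at 270.1 CPM. The other mice at ZT6 had 554 and 635 CPM of Ces1d, below the ZT10 mean of 756 CPM. Their Ces1g was at 379 and 396 CPM. The cosine called 4 members (26.3% of all genes), Ces1f with them (limma adjusted p = 0.011). Fitted peaks were at ZT19.1 ± 0.713 h (SE) for Ces1d, ZT19.8 ± 0.702 h for Ces1g, ZT22.6 ± 0.544 h for Ces1e and ZT23.0 ± 0.880 h for Ces1f, all in the dark phase. These peaks include GF WT ZT6 replicate 3 and are not given without it. Without that library the F test called 4, Ces1f among them (adjusted p = 0.015), whereas with 2 mice per ZT it called 0 to 2.

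In SPF WT livers none of the 6 passed the edgeR F test, beside 7.06% of all genes, and 2 had an unadjusted p under 0.05. Ces1d came closest (adjusted p = 0.051) and was called by the cosine (limma adjusted p = 0.031), which called 14.8% of all genes, and by DESeq2 (adjusted p = 7.3e-04). Its means were lowest at ZT6 (774 CPM) and highest at ZT18 (2119 CPM), with a fitted peak at ZT18.0 ± 1.11 h. That peak includes SPF WT ZT14 replicate 3 and is not given without it. With SPF WT ZT14 replicate 3 left out, whose 520.1 CPM stood beside 1724 and 1828 CPM in the other mice, Ces1d passed the F test (adjusted p = 5.7e-04).

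In SPF LKO livers none of the 6 passed the edgeR F test (5.3% of all genes, and 1 member with an unadjusted p under 0.05) and none passed the limma cosine (21.1% of all genes, and 0 members unadjusted). DESeq2 also called 0, as did the F test without the 2 libraries in the WT range. With no filter on low counts, the F test called 3 members in SPF LKO and 3 in SPF WT livers. In GF LKO livers 3 members passed the F test, beside 26.7% of all genes, and 3 passed the cosine (35%). These were Ces1f (F test adjusted p = 0.0023), Ces1g (adjusted p = 0.012) and Ces1d (adjusted p = 0.031), and with 2 mice per ZT 1 or 2 members were called. Ces1f was at 328, 335 and 350.3 CPM at ZT2 and at 319.8, 322 and 325 CPM at ZT6, against 151, 181 and 233 CPM at ZT14, so the early light phase stood above ZT14 without overlap. Fitted peaks were at ZT2.3 ± 0.880 h for Ces1d, ZT3.9 ± 0.753 h for Ces1f and ZT7.4 ± 1.16 h for Ces1g, all in the light phase. The difference in peak time between GF WT and GF LKO was not tested, because the genotype effect by ZT chose the members.

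Members also varied together among mice of the same group and ZT, which the rule did not use. After the mean of each group and ZT was taken away, log2 CPM correlated positively in all 15 pairs of members (Pearson's r 0.36 to 0.79, median 0.62, n = 72). Of the 15, all passed a permutation test within group and ZT at an adjusted p under 0.05, and 14 by Spearman's rho. Without the 4 libraries r was 0.19 to 0.71 (median 0.41, n = 68), with 10 pairs passing, and 9 by rho. The strongest pair was then Ces1d with Ces1f (r = 0.71, adjusted p = 5.0e-05, and rho = 0.65, adjusted p = 7.5e-05, permutation), followed by Ces1e with Ces1f (r = 0.70) and Ces1d with Ces1e (r = 0.67). The unadjusted p of these 3 pairs was 1e-05, the smallest that 100000 permutations can give. Without the 2 libraries farthest from the median of the first gene their r was 0.67, 0.64 and 0.63. The weakest pair was Ces1b with Ces1e (r = 0.19, adjusted p = 0.27, and rho = 0.18, adjusted p = 0.27, permutation). Over 7821 expressed genes and all 72 libraries, the median r of a member with all genes lay between -0.02 and 0.03, and the 95th percentile between 0.32 and 0.43. Both genes of a pair come from the same library and share its scaling.

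**Figure D4:**
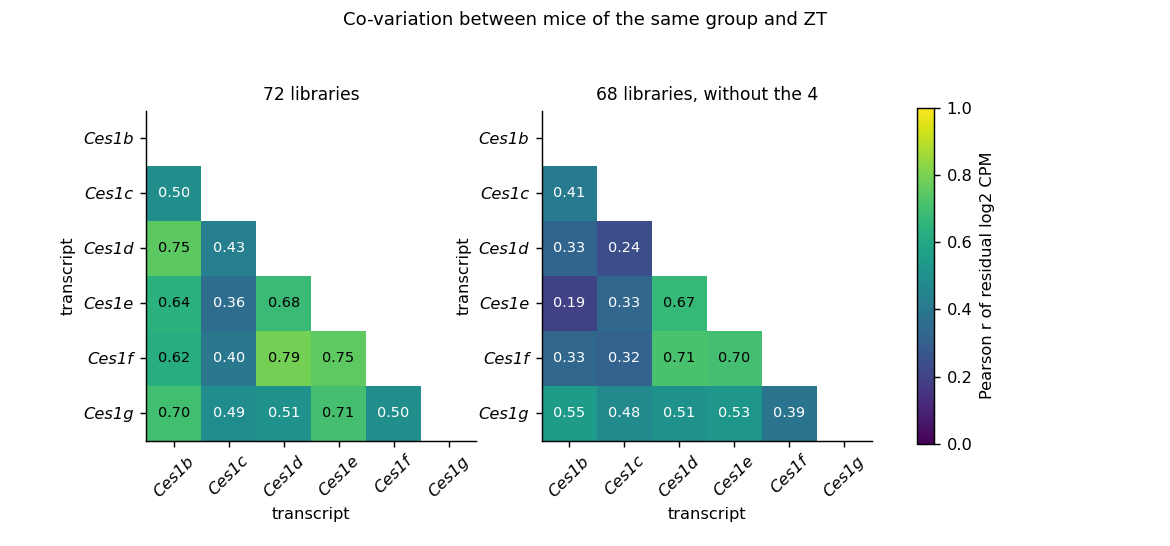
Pearson's r between members over mice, after removal of the mean of each group and ZT, in all 72 libraries (left) and without the 4 libraries that went against their labels (right). All 15 pairs are above 0 in both, and the pairs among Ces1d, Ces1e and Ces1f hold the highest values on the right, 0.67 to 0.71.

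The genes whose pattern over the 24 means of group and ZT was most like a member's were named by Pearson's r of log2 CPM, as a description. Ces1b was closest to Slc47a1, a transporter that exports organic cations (r = 0.99), then to Suclg2 and Hsd11b1 (0.97 and 0.97). Ces1d was closest to Acaa1b, a peroxisomal thiolase (r = 0.98), then to Chpt1 and Col27a1 (0.97 and 0.97). Without the 4 libraries Col27a1 came first for Ces1d (r = 0.976), before Acaa1b (0.974). Ces1f also had Acaa1b first (r = 0.94), followed by Hpgd and Aldh3a2 (0.92 and 0.92). Ces1e was closest to Suclg2, a subunit of a mitochondrial succinyl-CoA ligase (r = 0.97), then to Acaa1b (0.96). Ces1g was closest to Suclg2 (r = 0.91), Ehhadh and Aldh1b1 (0.91 and 0.90), and Ces1c to Maob, Eno1 and Cpt2 (0.93, 0.90 and 0.90). Without the 4 libraries Suclg2 fell to rank 3 for Ces1g. Between members r over the same 24 means was 0.68 (Ces1c with Ces1f) to 0.95 (Ces1d with Ces1f). The 24 means come from 4 groups, so a level that differs between groups enters every r.

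The other carboxylesterases had a median log2 difference of LKO from WT near 0, 0.06 in SPF mice and -0.03 in GF mice. Of 13 listed genes, 8 passed the filter in the genotype contrasts, and 1 was called lower and 2 higher in SPF LKO livers. Ces4a was lower (log2 difference -1.13 ± 0.23, edgeR adjusted p = 2.4e-04, mean 1.69 against 3.70 CPM) and Ces2e higher (0.39 ± 0.08, adjusted p = 5.1e-04, 250.5 against 191 CPM). In GF mice 3 were called lower and 0 higher by edgeR, with Ces4a at -0.94 ± 0.22 (adjusted p = 7.8e-04) and Ces2c at -0.54 ± 0.16 (adjusted p = 0.0092). DESeq2 called 3 in each. Over all genes tested, edgeR called 11.5% lower and 11.6% higher in SPF mice, and 15.2% and 15.6% in GF mice. Ces3a, the one with the most counts, was at 1257 to 2131 CPM in SPF LKO and 1369 to 2085 CPM in SPF WT, and the groups overlapped.

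Ces2a, an acylglycerol hydrolase, was the 1 listed carboxylesterase outside the cluster called for the difference of the genotype effect (-0.47 ± 0.09, edgeR adjusted p = 0.0023, 9 tested). It was lower in GF than in SPF livers in both genotypes, by a log2 difference of -0.46 ± 0.08 in WT (adjusted p = 2.2e-05) and -0.91 ± 0.05 in LKO mice (adjusted p = 1.3e-16). Its mean level was 449 CPM in SPF WT, 487 in SPF LKO, 331 in GF WT and 260.3 in GF LKO. For GF against SPF, 2 of 8 listed carboxylesterases were called higher and 2 lower in WT mice, the lower ones being Ces2a and Ces2e (-0.34 ± 0.09, adjusted p = 0.0053). In LKO mice 2 of 9 were called higher and 3 lower, among the lower Ces2a and Ces2b (-1.12 ± 0.36, adjusted p = 0.013). Over all genes tested, 14.2% were called higher and 17.7% lower in WT mice, and 18.1% and 18.4% in LKO mice.

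The list of regulators of carboxylesterase genes held 12 nuclear receptors and other factors. Of these, edgeR called 4 lower in LKO livers in SPF mice and 3 in GF mice. Over all genes tested, 11.5% and 15.2% were called lower there. For GF against SPF, 14.2% of all genes were called higher and 17.7% lower in WT mice, and 18.1% and 18.4% in LKO mice. Ppara, the fatty acid receptor, was lower by a log2 difference of -0.67 ± 0.11 in SPF mice (adjusted p = 2.0e-05) and -0.80 ± 0.14 in GF mice (adjusted p = 1.5e-05). Nr1i3, the xenobiotic receptor CAR, was lower by -0.66 ± 0.14 (adjusted p = 3.7e-04) and -0.60 ± 0.09 (adjusted p = 2.9e-06). For GF against SPF, 1 was called higher and 1 lower in WT mice, Nr1h3 (0.15 ± 0.06, adjusted p = 0.041) and Nfe2l2 (-0.28 ± 0.06, adjusted p = 9.5e-04). The call on Nr1h3 was lost without the 4 libraries (adjusted p = 0.054). In LKO mice 2 were called higher, Foxo1 among them (0.30 ± 0.12, adjusted p = 0.044, and 0.061 without SPF LKO ZT18 replicate 1), and 3 lower, Ppara among them (-0.37 ± 0.11, adjusted p = 0.011). For the difference of the genotype effect edgeR called 0 of the 12, with 0 at an unadjusted p under 0.05, and DESeq2 called 0. Over all 13484 genes edgeR called 59 (0.438%), with 876 at an unadjusted p under 0.05. The 0 calls are near that share, and nothing is read from them.

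Among 17 tested genes of neutral lipid hydrolysis and VLDL assembly, 2 were called higher and 3 lower in LKO livers in SPF mice, and 1 higher and 7 lower in GF mice. Lipc, hepatic lipase, was higher in both, by a log2 difference of 0.65 ± 0.08 (edgeR adjusted p = 7.9e-08) and 0.82 ± 0.05 (adjusted p = 1.4e-16). Mgll, monoacylglycerol lipase, was lower in SPF LKO livers (-0.45 ± 0.11, adjusted p = 0.0033). G0s2, an inhibitor of adipose triglyceride lipase, was lower in GF LKO livers (-1.29 ± 0.40, adjusted p = 0.011), a call lost without GF WT ZT6 replicate 3 (-0.74, adjusted p = 0.081). GF livers had less Soat2, a cholesterol esterifying enzyme, than SPF livers in WT (-0.45 ± 0.11, adjusted p = 0.0023) and in LKO mice (-0.53 ± 0.09, adjusted p = 3.3e-05). Cideb, a lipid droplet protein that acts in VLDL lipidation, was higher in GF WT (0.33 ± 0.04, adjusted p = 4.0e-07) and Lipc in GF LKO livers (0.41 ± 0.08, adjusted p = 7.4e-05). In all, 5 were called higher and 1 lower for GF against SPF in WT mice, and 3 higher and 1 lower in LKO mice. Over all genes tested, 14.2% were called higher and 17.7% lower in WT mice, and 18.1% and 18.4% in LKO mice. For LKO against WT the shares were 11.6% higher and 11.5% lower in SPF mice, and 15.6% and 15.2% in GF mice. For the difference of the genotype effect edgeR called 0 of the 17, with 0 at an unadjusted p under 0.05, and DESeq2 called 0. With 0.438% of all 13484 genes called by edgeR, 0 is near the share over all genes here too.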

How the data were processed

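Liver RNA from 72 mice was sequenced as stranded mRNA libraries with single-end reads of 50 bases. According to the study's methods and the file headers, the authors aligned reads to mm10 (GRCm38) with STAR 2.6.1b and deposited raw counts per gene from featureCounts 2.0.0 with the Ensembl release 97 annotation, summed over exons. The header's call set no strand, and multimapping reads and reads shared by overlapping genes went uncounted. Columns were matched to samples by the number in their names, and 0 columns were left unused. Of 55573 genes, 55394 had a symbol and 22224 had no count.

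Members and lists were chosen with earlier results of these data known. Counts were filtered and TMM-scaled in edgeR 4.0.16 (R 4.3.3). Pooled contrasts (18 libraries per group, ZT not in the fit) and differences between ZT used its quasi-likelihood test, with Benjamini-Hochberg adjustment over all genes tested and a threshold of 0.05. A 24 h cosine was tested on log2 CPM in limma 3.58.1, and DESeq2 1.42.0 was an alternative. Fitted peaks and their SE came from a separate least-squares fit of the cosine to log2 CPM (pseudocount 0.5). For members, group contrasts are printed without p-values. Named genes were the 6 members, the 3 genes most like each over 24 means (mean log2 CPM of at least 3), and in each list the 2 called genes with the largest log2 difference per contrast. A gene named by this rule is not reported here. Correlations between mice used 100000 permutations within group and ZT, adjusted over 15 pairs. Nothing in the labels says that mice came from separate litters, so p-values measure the spread between these mice. On simulated counts with 200 genes changed by a log2 of 1, 199 were recovered for genotype in SPF mice (13003 genes) and 193 for the difference of the genotype effect (13371 genes). These counts had no differences between ZT and took their spread from within group and ZT. The pooled fits of the real counts hold differences between ZT in their spread, so this recovery may be higher than theirs. With 200 genes given a 24 h amplitude of 0.5 in GF WT mice (13416 genes), the F test recovered 119 and the cosine 156.

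Alternatives were another scaling, no filter, DESeq2, a ZT term, a replicate block and leaving out replicates. By-ZT values, correlations and marker genes without the 4 libraries that went against their labels were chosen after seeing the data.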

Additional observations from a re-analysis of the deposited data

Results flagged for a closer look

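For 2 genes that were not chosen for their likeness to the members, the genotype effect differed between GF and SPF mice by edgeR's test of the difference itself (log2 effect in GF mice minus that in SPF mice, adjusted over 13484 genes). It was -0.73 ± 0.16 (SE) for Alb, whose promoter drives the Cre (adjusted p = 0.0097), and -0.47 without the 4 libraries that went against their labels (adjusted p = 0.030). It was -0.47 ± 0.09 for Ces2a (adjusted p = 0.0023), and -0.39 without the 4 libraries (adjusted p = 0.0021).

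The other 8 values are a description, since they belong to the choice of the genes. Among the members the difference was -1.67 for Ces1d, -1.18 for Ces1e, -0.85 for Ces1f and -0.77 for Ces1g, with this contrast part of the rule that chose them. Col27a1, Acaa1b, Hpgd and Ehhadh were named for following the members over the same libraries. For these it was -2.28, -0.91, -0.68 and -0.61, and without the 4 libraries -0.99, -0.63, -0.48 and -0.58, with Col27a1 and Hpgd no longer called.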

How the results depend on the processing

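The members called stayed within 1.5 times their number for the 5 group contrasts under every alternative run, and with replicate 1, 2 or 3 left out of every group they were 4 to 5 for LKO against WT in SPF mice, 6 in GF mice, 2 for GF against SPF in WT mice, 3 to 4 in LKO mice and 3 to 4 for the difference of the genotype effect. Over all genes, the 59 called for that difference became 71 with DESeq2, 67 with the replicate block, 85 with a ZT term, and 13, 15 and 25 without replicates 1, 2 and 3, where fewer samples were fitted, and 38 and 39 without SPF LKO ZT14 replicate 2 and without SPF LKO ZT18 replicate 1. For LKO against WT in SPF mice the 3043 genes called became 1711 and 1586 without replicates 1 and 3. For GF against SPF, the 4069 called in WT mice became 1674 and 2608 without replicates 2 and 3, and the 4741 in LKO mice 2431 and 3088. For differences between ZT in SPF WT mice, the 0 members called became 1 with the cosine, with DESeq2, with the replicate block and without the library that went against its label, 3 with no filter, and 0 to 1 without a replicate, while genes called went from 982 to 2062, 2097, 982, 1242 and 2730, and to 76 to 388 without a replicate. In SPF LKO mice 0 became 3 with no filter, and 0 without a replicate (744 genes called became 2733, and 2953 with the cosine, 2037 with DESeq2 and 3 to 77 without a replicate). In GF WT mice 3 became 0 to 2 without a replicate (1795 genes called became 353 to 1173, 3472 with the cosine, 2726 with DESeq2 and 3148 with no filter). In GF LKO mice 3 became 5 with no filter and 1 to 2 without a replicate (3606 genes called became 596 to 1796). Member-by-ZT differences above 0 were 0 to 2 without a replicate for LKO against WT in SPF mice, 0 in GF mice, 27 to 30 and 6 to 10 for GF against SPF in WT and LKO mice, and 0 to 3 for the difference of the genotype effect, which was 2 without the 4 libraries against 1. Of the 18 genes most like a member, 8 remained among the 3 nearest over all 72 libraries in place of 24 means. The share of Ces1c in the summed level was 57.3%, and 58.1% without the 4 libraries. In refits under these alternatives, the call of a named listed gene held 254 times and was lost 23 times, and a pooled difference of a member moved by less than 1 SD between mice 337 times and by more 5 times, each of the 5 without the 4 libraries. The cause of these changes was not tested, other than where fewer samples were fitted. Most samples with the same replicate number did not deviate together, with r over 0.1 in 6, 2, 5 and 5 of 18 pairs in the 4 group contrasts. The numbers were therefore not taken to pair the mice, and whether such samples share a small effect was not tested. Depth was 17369927 to 22076113 counts per library, and no member had fewer than 204 counts in a library.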
